A study of Mus musculus with 16 samples.

Results

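Palmitate alone was compared with its BSA vehicle in cultured gingival fibroblasts of mice (mGF), which are grown from gum explants. The comparison used 8 of the 16 libraries of the study, the 4 labelled palmitate (replicates 9 to 12) and the 4 labelled BSA (replicates 1 to 4), and all 16306 genes that passed the expression filter. The other 8 libraries, 4 with IL-1β and 4 with palmitate + IL-1β, served where the palmitate response was set beside another condition. All cells were wild type and came from C57Bl6 mice of 3 to 6 months, from the gingiva around a maxillary molar, and were used between passages 2 and 8 in medium with 20% serum. The BSA group received the albumin vehicle, the palmitate group 200 μM palmitate carried on albumin, the IL-1β group 1 ng/mL of the cytokine, and the combined group both agents, each for 24 h. The labels call the cells a line named mGF and do not say that libraries came from separate cultures or animals, so the p-values measure the spread between these libraries, which may be technical.

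Palmitate is the commonest saturated fatty acid of body fat and diet. Cells take it up bound to albumin, activate it to a coenzyme A ester and then burn it in mitochondria, store it in droplets or build it into membranes. An excess of saturated fatty acid is known to strain the endoplasmic reticulum and the redox balance of many cells. Gingival fibroblasts keep up the collagen of the gum, carry the positional transcription factors of the jaw mesenchyme from which they descend, and answer microbial products with defence genes.

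The BSA libraries held 32600223, 29732004, 25695360 and 28312614 counts on genes. The palmitate libraries held 21234789, 92752515, 27076430 and 24833282, so that palmitate replicate 10 was sequenced far more deeply than the other 7. A level of 3 counts, taken as the detection floor, lay between 0.0323 and 0.141 CPM (counts scaled to a common library total), the unit of all levels below. Beyond counting error, replicates had a common biological coefficient of variation of 6.08%.

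The label of the cells was set against their markers. Fn1 (fibronectin) averaged 15650 CPM in BSA and 19540 CPM in palmitate, and Col1a1 (a chain of collagen I) 14190 and 14030 CPM. Of 10 fibroblast markers, Pdgfra and Fn1 rose by 0.54 and 0.32 on the log2 scale, Col1a2, Thy1 and Pdgfrb fell by 0.17, 0.15 and 0.12, and 5 passed in neither direction. The calls of Fn1 and Pdgfrb were lost in 6 and 3 alternatives (edgeR adjusted p up to 0.0696 and 0.0887). The summed CPM of 8 epithelial markers lay between 0.370 and 1.04 in the 8 libraries, with Cdh1 the most abundant, that of 9 leukocyte markers between 2.2 and 3.4, with Csf1r on top and Tyrobp and Cd3e at 0, and that of 6 endothelial markers between 1.46 and 2.29, led by Cdh5. Adipocyte markers summed to at most 0.414, with Cidec and Retn at 0 in all 8 libraries. No tested marker of these 4 lists changed with palmitate. Schwann cell and pericyte markers, led by Cspg4, summed to 67.7 to 92.3 and muscle markers, led by Acta1, to 17.4 to 25.5. Among these, Notch3 and Acta1 fell by 0.61 and 0.44 on the log2 scale. The part of such cells in the results was not tested. In bulk RNA, fewer cells of a type and less RNA per cell cannot be told apart.

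Palmitate changed 6083 genes at a Benjamini-Hochberg adjusted p under 0.05 in edgeR's quasi-likelihood test, 37.3% of those tested, with 3228 higher (19.8%) and 2855 lower (17.5%). Most changes were small. The median size of a change among the called genes was 0.37 on the log2 scale, and the median over all genes tested was -0.003. A change of more than 2-fold was reached by 934 genes (5.73%), 583 higher (3.58%) and 351 lower (2.15%), and by 515 where at least 10 counts were asked in every library. The split of higher and lower calls depended on the scaling, since 37.15% of calls were higher with upper-quartile scaling against 53.07% with TMM. Where that scaling turned the majority of a list, its counts under it are given. Counts are taken as uncertain where at least 20% of a transcript is shared with other genes on either strand, overlaps on the opposite strand included. Besides the genes marked at their values, this holds for Hspa5 (44.6%), Prdx1 (36.9%), Cycs (34.7%), Plin2 (30.4%), Dbp (29.5%), Mmp3 (22.9%), Cebpb (21.3%), Col10a1 (20.8%) and Fbn1 (20.3%), and for Sfrp2 (22.4%) and the marker Csf1r (24.3%). The genes described here leave out chemokines, interferon-induced genes and purinergic genes.

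**Figure D1:**
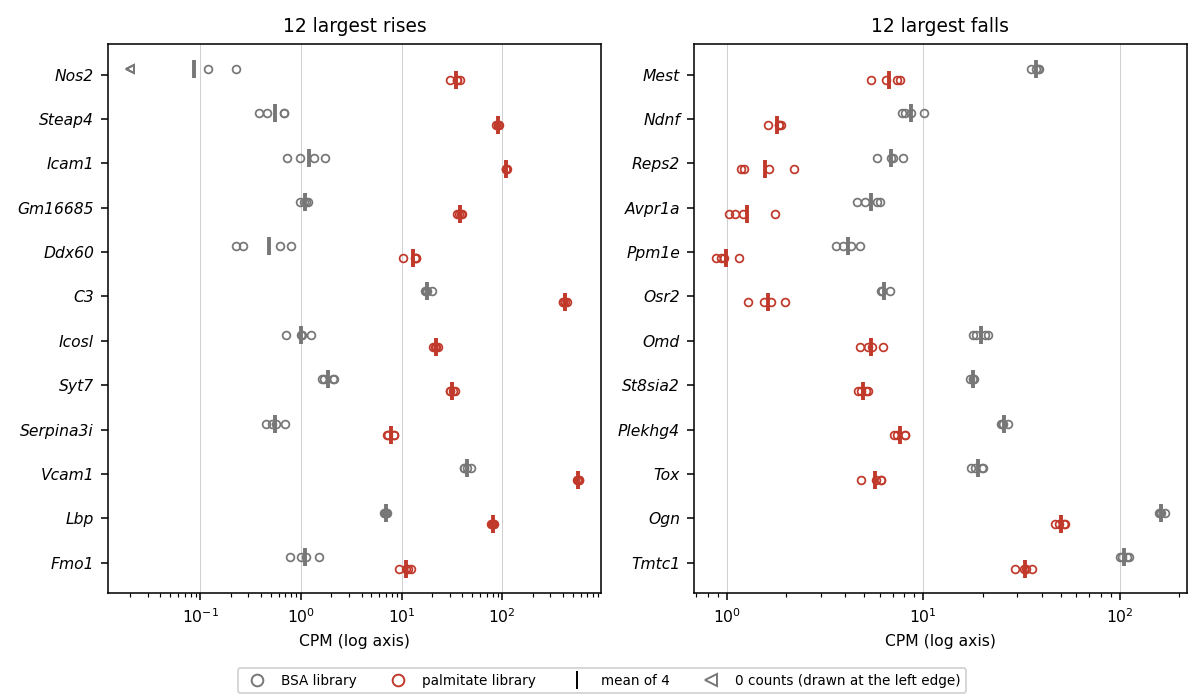
CPM on a log axis of the 12 largest rises (left) and the 12 largest falls (right) with palmitate, among genes with a mean log2 CPM of at least 1. Each circle is 1 library, grey for BSA and red for palmitate, bars are means of 4, and a triangle stands for 0 counts. The 24 genes were chosen among those whose groups do not overlap (36.0% of the genes tested).

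Among genes with a mean log2 CPM of at least 1, the largest rise was that of Nos2, the inducible nitric oxide synthase, at chr11:78811613-78851080 on the plus strand of GRCm39. It stood at 0.118, 0.226, 0 and 0 CPM in the BSA libraries, which is 0 to 7 counts, and at 30.0, 38.3, 35.2 and 35.4 CPM in the palmitate libraries. The BSA libraries were thus at or near the floor and the palmitate libraries close together. The fitted log2 fold change was 8.51 ± 0.19 (SE; edgeR adjusted p = 1.43e-22), while the ratio of the mean CPM was 403. Both rest on those few BSA counts, and the other folds given are likewise ratios of mean CPM. Genes around the enzyme rose with it. Gch1, which makes the tetrahydrobiopterin cofactor of nitric oxide synthases, went from 0.574 to 4.63 CPM on average, 8.07-fold. Slc7a2, an arginine transporter, rose 6.51-fold. Of 18 tested genes of nitric oxide, arginine and prostaglandin metabolism, 10 rose and 4 fell. The median was 0.31, and 0.12 with DESeq2 and 0.096 in edgeR without a filter, both over 28 genes, and 0.10 over the 16 with at least 10 counts in every library. Ptges, the terminal synthase of prostaglandin E2, rose 2.35-fold, whereas Ptgis, which makes prostacyclin, and Ptgfr, the receptor of prostaglandin F2α, fell by 0.24 and 0.26 on the log2 scale.

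Acute-phase and complement genes followed. Of 20 tested, 14 rose and 1 fell, with a median log2 fold change of 1.08. Members near the floor in BSA can pass the filter through the groups where they are high. Of the 16 with at least 10 counts in every library, 11 rose and 1 fell, with a median of 0.82. C3, the central complement component, at chr17:57510964-57535155 on the minus strand, held 17.8, 17.4, 17.0 and 20.1 CPM in BSA and 424, 441, 402 and 404 CPM in palmitate. The groups were far apart, by 23.2-fold (log2 4.53 ± 0.06, edgeR adjusted p = 2.1e-32). Lbp, the protein that hands bacterial lipopolysaccharide to CD14, stood at 6.75, 7.17, 7.02 and 6.85 CPM in BSA and at 79.9, 83.3, 80.9 and 77.6 in palmitate. That was a rise of 11.6-fold (edgeR adjusted p = 2.31e-28). Saa3 (serum amyloid A) and Lcn2 (lipocalin 2, which binds bacterial siderophores) lay near the floor in BSA, with 1 to 5 and 0 to 5 counts, and averaged 23.2 and 6.01 CPM in palmitate. Serpina3i, a protease inhibitor, rose 14.2-fold, although 31.4% of its transcript is shared with Serpina3h and Serpina3g and its counts are uncertain for that reason. Masp1, a protease of the lectin pathway of complement, was the member that fell (log2 -0.29 ± 0.05).

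Genes of leukocyte adhesion, integrins and cadherins were mixed. Of 31 tested, 12 rose and 10 fell (10 and 12 with upper-quartile scaling). Icam1, which binds leukocyte integrins, at chr9:20926672-20940113 on the plus strand, had 1.36, 0.969, 0.725 and 1.71 CPM in BSA and 109, 109, 110 and 112 CPM in palmitate. It was 92.1-fold higher (log2 6.51 ± 0.10, edgeR adjusted p = 5.18e-27). Vcam1 rose 12.8-fold, and Icosl, the ligand of the T cell costimulator ICOS, 21.9-fold. The called falls of the list included Cdh3 (P-cadherin, 2.03-fold lower) and Itga8 (log2 -0.44). Cd40, a receptor for T cell help, averaged 6.71 CPM in palmitate against 1 to 4 counts per BSA library. Il6 went from 0.439 to 7.97 CPM, 18.2-fold. Of 26 tested interleukins, colony-stimulating factors and TNF family genes, 17 rose and 2 fell, with a median of 1.02. Some, such as Cd40, were near the floor in BSA. Of the 21 with at least 10 counts in every library, 12 rose and 2 fell, with a median of 0.60. The falls among the 26 were Il33, an alarmin (1.51-fold lower), and Tnfrsf11b, osteoprotegerin, the decoy receptor of RANKL (1.41-fold lower).

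Other genes among the 12 largest rises have varied roles. Steap4, a ferrireductase, rose from 0.681, 0.678, 0.382 and 0.454 CPM to 90.0, 93.6, 87.4 and 91.3 CPM, 165-fold (edgeR adjusted p = 1.07e-13). Syt7, a calcium sensor of lysosome exocytosis, rose 16.8-fold and Fmo1, a flavin monooxygenase, 9.98-fold. Gm16685, a transcript without a protein name in the annotation, rose 34.7-fold, and Ddx60, a helicase of antiviral defence that is not on the list of interferon-induced genes set aside here, 27.0-fold.

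Subunits and inhibitors of NF-kB, a factor known to drive many inflammatory genes, rose almost throughout. Of 27 tested, 25 rose and none fell in edgeR's test (median 0.95), and the counts were the same with upper-quartile scaling. Nfkbia, the inhibitor IkBα, went from 17.7, 15.5, 16.5 and 17.4 CPM to 73.5, 76.7, 76.3 and 74 CPM. It was 4.48-fold higher (edgeR adjusted p = 2.4e-25). Zc3h12a, the ribonuclease regnase-1 that degrades cytokine mRNAs, rose 7.29-fold, Bcl3, a nuclear IkB protein, 5.22-fold, and Relb 1.73-fold. The 250 bases before the start site were read for the kappaB motif on both strands, overlapping matches counted in the same promoter. It was present in 594 of 12913 promoters (4.6%), in 7 of the 27 NF-kB genes tested (25.9%) and in 6 of the 20 acute-phase and complement genes tested (30.0%). These carriers all rose, but so did 25 of the 27 and 14 of the 20. A link between motif and rise was not tested. The motif was also present in 4 of 25 cholesterol genes (16.0%). A match describes the letters and is not evidence of binding. The following 60-base windows of GRCm39, 5′ to 3′ on the strand of the gene, show the motif in capitals before 5 genes that rose, Relb the least of them. They lie at chr9:20926422-20926481 (plus, Icam1), chr2:158148262-158148321 (plus, Lbp), chr12:104229202-104229261 (plus, Serpina3i), chr12:55539433-55539492 (minus, Nfkbia) and chr7:19363426-19363485 (minus, Relb), and no annotated exon lies under them.
Icam1: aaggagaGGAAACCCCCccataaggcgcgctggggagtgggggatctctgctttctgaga
Lbp: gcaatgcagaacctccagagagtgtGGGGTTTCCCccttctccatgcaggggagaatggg
Serpina3i: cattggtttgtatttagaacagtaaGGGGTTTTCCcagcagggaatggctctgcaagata
Nfkbia: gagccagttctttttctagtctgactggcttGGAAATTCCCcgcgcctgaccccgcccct
Relb: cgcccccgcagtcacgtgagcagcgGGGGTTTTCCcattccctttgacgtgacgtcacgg

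**Figure D2:**
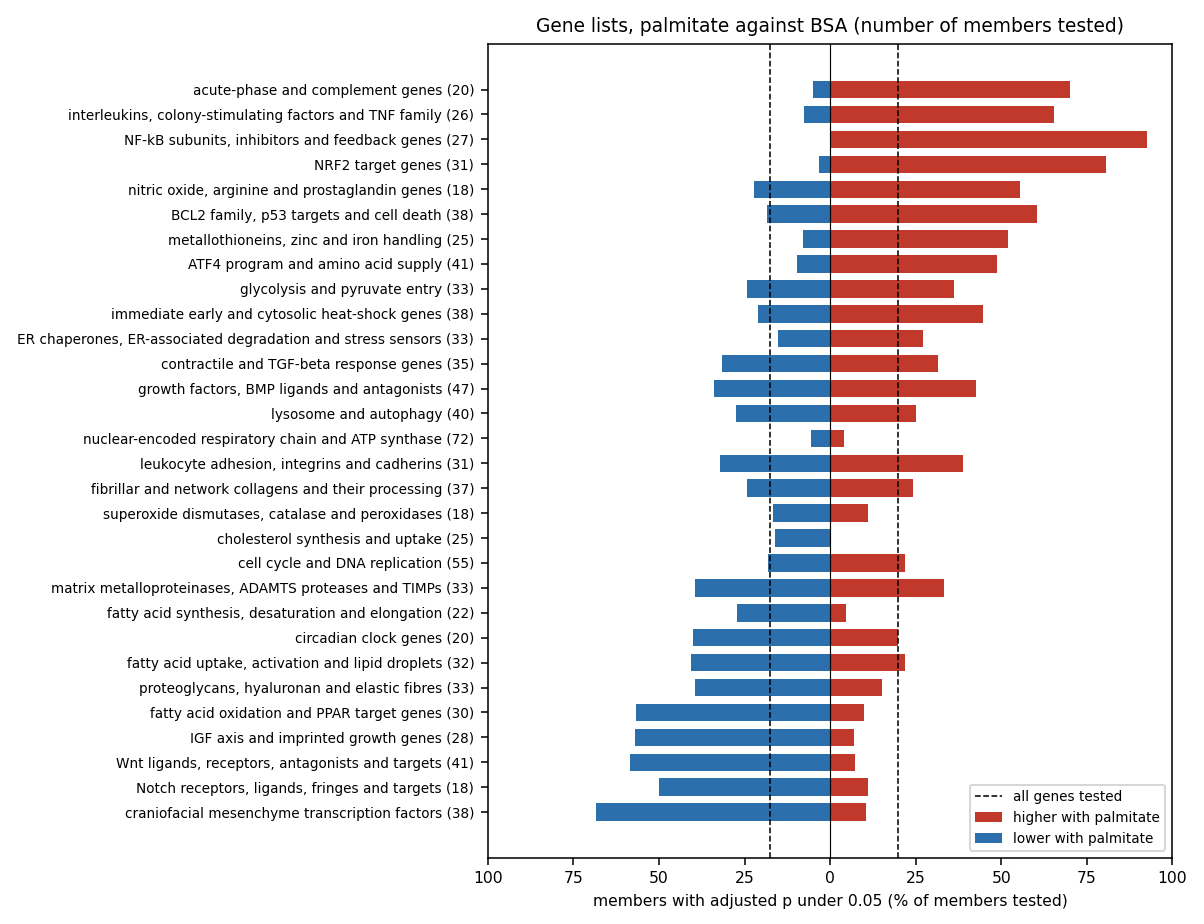
Share of the tested members of 30 gene lists that were higher (red, to the right) or lower (blue, to the left) with palmitate at an adjusted p under 0.05, in percent, with the number tested in parentheses. Dashed lines give the shares over all genes tested (19.8% higher and 17.5% lower), and the lists run from NF-kB and NRF2 genes, mostly higher, to Wnt and craniofacial genes, mostly lower.

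Targets of NRF2, the transcription factor that answers oxidants and electrophiles, formed the second broad rise. Of 31 tested, 25 were higher and 1 was lower, the median was 0.71 and 11 exceeded 2-fold. Upper-quartile scaling left the numbers higher and lower as they were, with a median of 0.64. Slc7a11, the cystine importer xCT that feeds glutathione synthesis, at chr3:49846975-50398070 on the minus strand, stood at 44.5, 49.1, 54.9 and 47.4 CPM in BSA and 396, 397, 360 and 375 CPM in palmitate. It rose 7.80-fold (log2 2.96 ± 0.09, edgeR adjusted p = 9.16e-15). Gclm, a subunit of the enzyme that makes the first bond of glutathione, went from 86.3, 87.1, 96.5 and 89.4 CPM to 270, 253, 243 and 256 CPM. The groups were apart by 2.85-fold (edgeR adjusted p = 5.36e-23). Srxn1 (sulfiredoxin, which repairs peroxiredoxins) rose 2.89-fold, Sqstm1 (the autophagy receptor p62) 2.33-fold and Txnrd1 (thioredoxin reductase) 2.18-fold. Hmox1 (heme oxygenase) rose 1.85-fold, Prdx1 (a peroxiredoxin) 1.46-fold and Nqo1 (a quinone reductase) 1.22-fold. Ephx1, an epoxide hydrolase, was the member that fell (log2 -0.15 ± 0.05), a call lost without BSA replicate 1, BSA replicate 2 or palmitate replicate 12 (edgeR adjusted p up to 0.087). Sqstm1 shares 31.2% of its transcript with overlapping or similar genes.

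The motif searched for NRF2 was the core TGACNNNGC on both strands. It lay within 250 bases of the start site in 10.5% of all promoters in 5 of the 31 NRF2 targets tested (16.1%) and in 5 of the 25 that rose (20.0%). Of the 27 NF-kB genes tested, 5 held it as well (18.5%). The windows shown are those of Gclm, at chr3:122039047-122039106 on the plus strand, where the match begins 54 bases before the start site, and of Sqstm1, at chr11:50102976-50103035 on the minus strand, where it begins 125 bases before. Capitals mark the match, and no annotated exon lies under either window. Among the other motifs searched, TGCGCNC (metal response) lay before 4 of 25 genes of metal handling (16.0%), near its 17.5% of all promoters. TCACNCCAC (sterol response) lay before 1 of 25 cholesterol genes (4.00% against 1.06%) but also before 3 of 31 NRF2 targets (9.68%). TGATGNAAT (amino acid response) lay before 4 of 41 genes of the ATF4 list (9.76% against 0.472%). None of these ATF4 list genes rose.
Gclm: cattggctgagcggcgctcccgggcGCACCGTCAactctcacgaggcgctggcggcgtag
Sqstm1: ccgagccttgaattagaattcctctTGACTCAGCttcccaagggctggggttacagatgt

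Of 18 tested genes of superoxide and peroxide handling, 2 were higher (11.1%) and 3 lower (16.7%), against 19.8% and 17.5% of all genes tested. Sod2, the manganese superoxide dismutase of mitochondria, went from 30.2, 28.6, 29.7 and 30.9 CPM to 120, 117, 113 and 118 CPM, 3.92-fold (edgeR adjusted p = 2.78e-26). Prdx6 rose 1.57-fold. Nox4, an oxidase that makes hydrogen peroxide, was 1.57-fold lower, and Gpx1 1.18-fold lower, with 80.5% of the Gpx1 transcript shared with Gm57050.

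Genes of metal handling rose more often than they fell (13 and 2 of 25, and 13 and 4 with upper-quartile scaling). The iron importers were among them. Slc11a2, the divalent metal transporter DMT1, rose 3.94-fold and Tfrc, the transferrin receptor, 2.11-fold. Slc40a1, ferroportin, which is the iron exporter of cells, moved the other way. It had 90.2, 96.5, 100 and 82.8 CPM in BSA and 58.2, 55.4, 57.5 and 58.0 in palmitate, and was 1.61-fold lower (edgeR adjusted p = 1.34e-12).

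**Figure D3:**
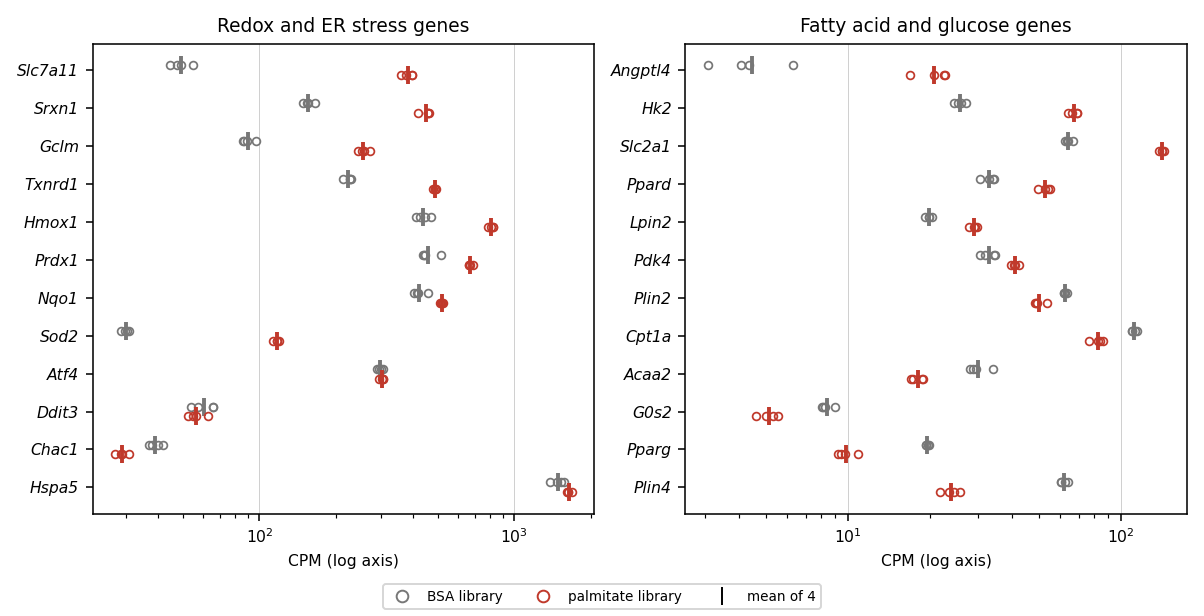
CPM on a log axis of redox and endoplasmic reticulum stress genes (left) and of fatty acid and glucose genes (right) in each of the 4 BSA libraries (grey) and 4 palmitate libraries (red), with bars for the means of 4. Slc7a11 and Sod2 moved far to the right, Atf4 and Ddit3 overlapped between the groups, and Plin4 and Pparg moved to the left.

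The markers of endoplasmic reticulum stress moved little at 24 h. Atf4, the factor made on translation arrest by PERK, stood at 294, 300, 290 and 304 CPM in BSA and 294, 304, 305 and 302 CPM in palmitate. The groups overlapped, with a log2 difference of 0.02 ± 0.04 (edgeR adjusted p = 0.758) that was -0.05 with upper-quartile scaling. Ddit3 (CHOP) had a log2 difference of -0.10 (edgeR adjusted p = 0.311), with counts that are uncertain because 99.7% of its transcript is shared with other genes. Hspa5 (the chaperone BiP) rose by 0.14 ± 0.04 (edgeR adjusted p = 0.00741), a call lost with upper-quartile scaling (adjusted p = 0.177) and without BSA replicate 2 (adjusted p = 0.087). Of 33 chaperones, degradation factors and sensors, 9 rose and 5 fell, which turned to 4 and 7 with upper-quartile scaling. The sensors Ern1 (IRE1) and Atf6 rose by 0.39 and 0.27 on the log2 scale, whereas Derl1 and Edem1, which serve the removal of misfolded proteins, fell by 0.31 and 0.26. Messenger levels do not measure the activity of these proteins.

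In the list of the ATF4 program and amino acid supply, 20 of 41 tested genes rose and 4 fell, with a median of 0.13 (14 and 5, median 0.064, with upper-quartile scaling). Slc7a11, which is also an NRF2 target, was the largest rise, followed by Cebpb (3.17-fold), a C/EBP factor that also serves the acute-phase response. Chac1, a glutathione-degrading enzyme that ATF4 and CHOP induce, had 39.8, 41.9, 37.7 and 36.8 CPM in BSA and 28.9, 27.2, 30.9 and 28.5 in palmitate. It fell by 1.35-fold (edgeR adjusted p = 5.97e-08). Vldlr, a lipoprotein receptor, fell by 0.24 on the log2 scale.

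Genes that burn fatty acids were lower more often than higher. Of 30 tested genes of oxidation and of PPAR response, 17 fell and 3 rose, with a median of -0.19, and 23 fell and 3 rose with upper-quartile scaling. Of the 14 enzymes that carry out the turns of beta-oxidation and pass on its electrons, a family picked out after its values were seen, 8 fell and none rose. Acaa2, the thiolase of the last step, was 1.67-fold lower and Acadm, the medium-chain dehydrogenase, 1.45-fold lower. Cpt1a, which admits long-chain fatty acids to mitochondria, went from 110, 110, 114 and 113 CPM to 82.7, 86.2, 83.8 and 76.7 CPM. It was 1.36-fold lower (edgeR adjusted p = 7.18e-10). Pparg, the nuclear receptor of fat cells, stood at 19.3, 19.7, 19.8 and 19.4 CPM in BSA and 9.47, 9.73, 10.9 and 9.20 in palmitate. That was 1.99-fold lower (edgeR adjusted p = 1.11e-12).

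The 3 rises in the list were Angptl4, Ppard and Pdk4. Angptl4, a secreted inhibitor of lipoprotein lipase that fatty acids induce through PPARs, had 3.08, 4.07, 6.29 and 4.33 CPM in BSA and 16.9, 22.6, 22.7 and 20.7 in palmitate. It rose 4.66-fold (edgeR adjusted p = 5.29e-09). Ppard, the nuclear receptor PPARδ, rose 1.6-fold and Pdk4, the kinase that closes pyruvate dehydrogenase, 1.25-fold.

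Genes of fatty acid uptake, activation and lipid droplets, taken as 1 list, were lower more often than higher. Of 32 tested, 13 fell and 7 rose. Plin4, a droplet coat protein, had 60.2, 63.8, 62.4 and 60.3 CPM in BSA and 23.6, 21.8, 25.8 and 24.5 in palmitate, 2.58-fold lower (edgeR adjusted p = 1.24e-19), with 42.0% of its transcript shared. G0s2, an inhibitor of the droplet lipase ATGL, was 1.63-fold lower and Plin2, the general droplet coat, 1.25-fold lower. The phosphatidate phosphatases Lpin3 and Lpin2 rose 1.64-fold and 1.47-fold. Of 22 genes of fatty acid synthesis and desaturation 6 fell and 1 rose (4 and 3 without BSA replicate 3, 9 and 1 with upper-quartile scaling), the rise being Fasn (1.24-fold), and the named falls were Acss2 (1.32-fold lower) and the desaturase Fads1 (1.17-fold lower). Of 25 cholesterol genes 4 fell (16.0%, near the 17.5% of all genes) and none rose, with a median of -0.015. The counts were 10 and none with upper-quartile scaling and 4 and 3 without BSA replicate 3, and the median was 0.021 without palmitate replicate 9 and 0.0039 with palmitate replicate 10 thinned. The falls of Tm7sf2 (log2 -0.35) and Dhcr7 (log2 -0.19) lost significance in 1 and 4 alternatives, the highest adjusted p being 0.108 without BSA replicate 1 and 0.0787 without palmitate replicate 10.

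Genes of glycolysis and pyruvate entry were mixed, with 12 of 33 higher and 8 lower (10 and 9 with upper-quartile scaling). Hk2, an inducible hexokinase, went from 25.3, 24.5, 27.2 and 26.0 CPM to 69.3, 69, 64.1 and 66.1 CPM, 2.61-fold (edgeR adjusted p = 2.64e-20). Slc2a1, the glucose transporter GLUT1, had 64.3, 63.3, 66.6 and 62.2 CPM in BSA and 141, 138, 144 and 142 in palmitate, 2.21-fold (edgeR adjusted p = 5.35e-19). Among the falls were the muscle isoforms Eno3 (1.79-fold lower) and Pfkm (1.40-fold lower). Nuclear genes of the respiratory chain and ATP synthase moved little, with 3 of 72 higher and 4 lower (2 and 13 with upper-quartile scaling). Their median of 0.008 carried no stable sign, at -0.061 with upper-quartile scaling and below 0 also with other filters and without BSA replicate 2, BSA replicate 3 or palmitate replicate 12. The number lower was 2 without BSA replicate 3, palmitate replicate 9 or palmitate replicate 10, and the number higher 5 without BSA replicate 4. Of the 4 named members, Cycs rose 1.41-fold and Sdhc and Sdhd fell by 0.16 and 0.21 on the log2 scale. Atp5l (1.43-fold) is uncertain, since 91.6% of its transcript is shared with other genes.

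At the same minimum level, the falls were led by Mest, an imprinted gene of the growing mesoderm that encodes a putative hydrolase, at chr6:30723546-30752058 on the plus strand. It stood at 38.3, 38.6, 37.5 and 35.3 CPM in BSA and 7.33, 6.46, 5.4 and 7.60 in palmitate. The difference was 5.59-fold (log2 -2.50 ± 0.11, edgeR adjusted p = 9.6e-13), and 62.0% of the transcript overlaps Copg2. Ndnf, a secreted neuron-derived neurotrophic factor, was 4.8-fold lower, from 8.02, 8.66, 10.1 and 7.76 CPM to 1.85, 1.62, 1.84 and 1.89 CPM. Omd and Ogn, small leucine-rich proteoglycans whose genes lie side by side at chr13:49735938-49746298 and chr13:49761349-49780412, were 3.62-fold and 3.25-fold lower. Ogn shares 22.3% of its transcript with Cenpp. Others of the 12 largest falls were Avpr1a, a vasopressin receptor (4.24-fold lower), St8sia2, a polysialyltransferase (3.60-fold), Tox, a nuclear HMG box protein (3.35-fold), and Tmtc1, an O-mannosyltransferase of cadherins (3.22-fold). Reps2, an endocytosis adaptor, Ppm1e, a protein phosphatase, and Plekhg4, a guanine nucleotide exchange factor, were 4.41-fold, 4.20-fold and 3.35-fold lower.

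Most transcription factors of the craniofacial mesenchyme fell. Of 38 tested, 26 fell, 4 rose and 8 passed in neither direction, with a median of -0.45, and 28 fell and 4 rose with upper-quartile scaling. Osr2, a zinc finger factor that patterns palate and teeth, had 6.16, 6.07, 6.79 and 6.15 CPM in BSA and 1.55, 1.69, 1.28 and 1.97 in palmitate, 3.87-fold lower (edgeR adjusted p = 1.81e-12). Its relative Osr1 was 2.60-fold lower. Twist1, which keeps mesenchyme undifferentiated, was 1.67-fold lower, Runx2, the factor of osteoblasts, 1.59-fold lower, and Sox9, the factor of cartilage, 1.69-fold lower. The falls took in genes of many families, such as Dlx2 and Dlx5, Foxc1, Foxc2, Foxd1 and Foxf2, Lhx6 and Lhx8, and Pax3 and Pax9. The calls of Dlx2 and Foxc2 were lost in 5 and 4 alternatives (adjusted p up to 0.114 and 0.0689). Msx1 fell and its relative Msx2 rose (2.61-fold). Sox5, a partner of SOX9 in cartilage, went from 3.55, 4.04, 3.47 and 3.50 CPM to 13.7, 13.3, 14.7 and 12.2 CPM, 3.70-fold (edgeR adjusted p = 5.21e-18). Foxf1 and Meox1 also rose.

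Wnt genes were also lower more often than higher. Of 41 tested, 24 fell and 3 rose, with a median of -0.43, and the counts were the same with upper-quartile scaling. Among the ligands, 7 of 10 tested fell and none rose. Wnt4 was 2.89-fold lower, from 3.26, 3.65, 3.59 and 2.94 CPM to 0.923, 1.53, 0.955 and 1.23 CPM (edgeR adjusted p = 1.43e-07), and Wnt5a, which signals without β-catenin, 1.53-fold lower. Among the frizzled receptors, 7 of 8 tested fell, the exception being Fzd3 (log2 0.17, not past the threshold). Fzd8 had 40.5, 42.2, 41.9 and 41.8 CPM in BSA and 19.3, 18.6, 19.8 and 20.3 in palmitate, 2.14-fold lower (edgeR adjusted p = 7.4e-16). The coreceptors Lrp5 and Lrp6 and the secreted antagonists Dkk3, Sfrp1 and Sfrp2 fell too, Sfrp2 not without palmitate replicate 10 (edgeR adjusted p = 0.0825). Lef1, a nuclear partner of β-catenin, rose 2.17-fold, with 58.2% of its transcript shared with Lef1os1, and Ror1, a receptor of WNT5A, 1.39-fold. The families of ligands and receptors were singled out after their values were seen.

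Notch genes fell more often than they rose. Of 18 tested, 9 fell, 2 rose and 7 passed in neither direction, with a median of -0.44. The median was -0.27 over the 16 with at least 10 counts in every library, and -0.15 with DESeq2 and -0.17 in edgeR without a filter, both over 23 genes (8 and 7 lower). Jag1, a Notch ligand, at chr2:136923373-136958693 on the minus strand, stood at 236, 243, 234 and 238 CPM in BSA and 84.8, 82.8, 80.8 and 82.7 CPM in palmitate. It was 2.87-fold lower (log2 -1.52 ± 0.04, edgeR adjusted p = 5.51e-24). The 4 tested Hes and Hey genes, repressors that Notch switches on and a family picked out after its values were seen, fell, with Hey2 4.62-fold, Heyl 3.76-fold, Hey1 2.31-fold and Hes1 2.03-fold lower. The rises were Rbpj, the DNA-binding protein of the pathway, which went from 149, 150, 165 and 162 CPM to 412, 403, 401 and 437 CPM (2.64-fold, with 26.5% of its transcript shared with a pseudogene), and Maml2, its coactivator (1.20-fold).

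In the list of the IGF axis and imprinted growth genes, 16 of 28 tested genes fell and 2 rose. Ndnf had been put on this list in error, and without it 15 of 27 fell and 2 rose, with a median of -0.34. Igf1, the growth factor itself, had 304, 296, 331 and 322 CPM in BSA and 202, 186, 180 and 200 in palmitate, 1.63-fold lower (edgeR adjusted p = 4.54e-13). Of 14 tested imprinted genes, 8 fell and 1 rose, a family picked out after its values were seen. Cdkn1c, the imprinted cell cycle inhibitor p57, went from 23.1, 23.1, 22.8 and 24.8 CPM to 11.6, 9.50, 7.38 and 6.82 CPM. It was 2.66-fold lower (edgeR adjusted p = 1.55e-09), with 30.8% of its transcript shared with Gm44732. Igfbp3, an IGF carrier, rose 1.27-fold. Igf2r, a receptor that clears IGF2, rose by 0.20 on the log2 scale, a call lost in 8 alternatives, among them those without BSA replicate 1, 2 or 4 or palmitate replicate 9 or 10 (edgeR adjusted p up to 0.166).

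**Figure D4:**
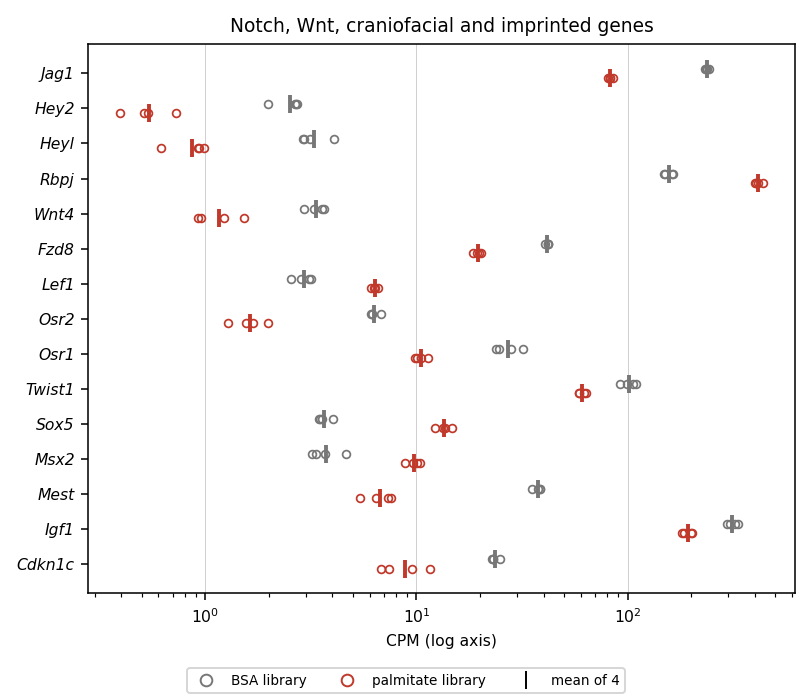
CPM on a log axis of 15 genes of the Notch, Wnt, craniofacial and imprinted lists in each of the 4 BSA libraries (grey) and 4 palmitate libraries (red), with bars for the means of 4. Rbpj, Lef1, Sox5 and Msx2 lay higher with palmitate and the other 11 lower. The genes were chosen with their values known.

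Growth factors split. Of 47 tested, 20 rose and 16 fell (18 and 20 with upper-quartile scaling), so no direction is given for the group. Bmp3 rose 4.66-fold, from 3.61, 4.10, 4.12 and 4.09 CPM to 20.9, 17.2, 16.7 and 19.5 CPM, and Bmp6, a bone morphogenetic protein, 4.41-fold. Vegfd, a growth factor of lymphatic vessels, went from 102, 99.3, 103 and 105 CPM to 46.0, 43.9, 45.7 and 48.4 CPM. It was 2.22-fold lower (edgeR adjusted p = 3.28e-19). Fgf18, a factor of skeletal growth, was 6.63-fold lower at a low level, from 1.75 to 3.46 CPM in BSA and 0.246 to 0.628 CPM in palmitate.

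Matrix genes were mixed. Of 37 collagens and their processing enzymes, 9 rose and 9 fell (7 and 15 with upper-quartile scaling), none by more than 2-fold. Col5a3 rose 1.56-fold and the collagen hydroxylase P4ha2 1.43-fold, while Col10a1 and Col11a1 fell by 0.57 and 0.51 on the log2 scale. Of 33 proteoglycan, hyaluronan and elastic fibre genes, 13 fell and 5 rose, with a median of -0.16 (19 and 3, median -0.23, with upper-quartile scaling). Besides Omd and Ogn, the named members were Cd44, the hyaluronan receptor, which went from 310, 310, 301 and 340 CPM to 995, 996, 992 and 1037 CPM (3.19-fold, edgeR adjusted p = 1.8e-24), and Fbn1, the microfibril protein fibrillin 1, which rose 1.45-fold.

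Matrix metalloproteinases, ADAMTS proteases and TIMPs, which inhibit such proteases, moved in both directions, with 11 of 33 higher and 13 lower. Mmp3, stromelysin 1, had 9.32, 7.62, 9.27 and 8.35 CPM in BSA and 46.1, 48.5, 43.8 and 45.7 in palmitate, 5.33-fold higher (edgeR adjusted p = 4.17e-23). Mmp10, stromelysin 2, rose 5.25-fold at a low level. Adamts9 and Mmp15 were 2.47-fold and 2.07-fold lower. In the contractile and TGF-β response list, 11 of 35 genes rose and 11 fell (9 and 14 with upper-quartile scaling). Tgfbr3, the coreceptor betaglycan, rose 2.85-fold and Tagln2, a relative of transgelin, 1.6-fold. Tgfb3, a TGF-β ligand, and Smad6, an inhibitor of BMP signals, were 1.62-fold and 1.43-fold lower.

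In the list of the BCL2 family, p53 targets and cell death, 23 of 38 tested genes rose and 7 fell, with a median of 0.27. Casp4, the caspase that senses lipopolysaccharide inside cells, went from 4.20, 4.59, 4.01 and 4.82 CPM to 25.6, 23.3, 24.7 and 21.3 CPM, 5.38-fold (edgeR adjusted p = 1.15e-21). Fas, a death receptor, rose 3.26-fold, while Bok and Bmf, death-promoting members of the BCL2 family, were 1.98-fold and 1.65-fold lower. Cell cycle genes were mixed, with 12 of 55 higher (21.8%) and 10 lower (18.2%), near the shares of all genes (9 and 14 with upper-quartile scaling). Cdk6, a kinase of the G1 phase, rose 2.43-fold and its inhibitor Cdkn2b (p15) 1.69-fold, whereas Cdkn1b (p27) was 1.54-fold lower.

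Lysosome and autophagy genes were also mixed (10 of 40 higher and 11 lower, and 8 and 14 with upper-quartile scaling, which turned the median from 0.015 to -0.054). That median was also below 0 without BSA replicate 1 or palmitate replicate 9, and with at least 10 counts in every library. Mitf, a factor of lysosomal genes, rose 1.87-fold, and Gpnmb, a lysosomal glycoprotein, and Atp6v0d1, a proton pump subunit, were 1.29-fold and 1.26-fold lower. Of 38 immediate early and heat-shock genes, 17 rose and 8 fell. Ier3 rose 3.44-fold, as did Fosl1, an AP-1 factor, by 3.72-fold, though 34.9% and 75.6% of these transcripts are shared with other genes. Nr4a1, an orphan nuclear receptor, and Fosb were 2.7-fold and 2.42-fold lower.

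Clock genes were mixed. Arntl, which encodes the activator BMAL1, had 11.8, 11.8, 11.2 and 12.5 CPM in BSA and 30.0, 26.8, 29.2 and 28.1 in palmitate, 2.41-fold higher (edgeR adjusted p = 2.49e-16). Bhlhe40, a repressor of BMAL1 target genes, rose 1.72-fold, whereas Dbp, a target of BMAL1, was 1.55-fold lower and Rorb, a nuclear receptor, 1.96-fold lower. In all, 4 of 20 clock genes rose and 8 fell. All libraries were taken at 1 time, so phase and level cannot be told apart.

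The palmitate response was compared with that in cells that also received IL-1β. Palmitate + IL-1β against IL-1β shares no library with palmitate against BSA. It changed 5712 genes in edgeR's test (35.0%), 3082 higher (18.9%) and 2630 lower (16.1%). Of the 6083 genes changed by palmitate alone, 5874 (96.6%) had the same sign there, 4279 (70.3%) were called in the same direction and 13 in the opposite one. The 12 largest falls had log2 fold changes from -1.5 (Tmtc1) to -2.38 (Mest) in the presence of IL-1β, and none of them had an interaction past the threshold.

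Many of the large rises had a smaller fold when IL-1β was present in both arms. Each fold starts from its own control, BSA or IL-1β, so a smaller fold does not mean that a lower level was reached. The levels reached with palmitate and with palmitate + IL-1β were not tested against each other. Of the 583 genes that rose more than 2-fold, 169 had an interaction at an adjusted p under 0.05 in edgeR's test, against 1.99% of all genes tested, and their 583 log2 fold changes had a median of 1.78 without IL-1β and 1.29 with it. The interaction shares the palmitate and BSA libraries with the choice of these genes. Of the 351 genes that fell more than 2-fold, 4 had an interaction, with medians of -1.28 and -1.05. Nos2 rose by 8.51 without IL-1β and by 5.06 with it on the log2 scale, Icam1 by 6.51 and 3.21, and Slc7a11 by 2.96 and 1.56. Slc2a1 rose by 1.14 and 1.12 and Sod2 by 1.97 and 1.76, with no interaction past the threshold.

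**Figure D5:**
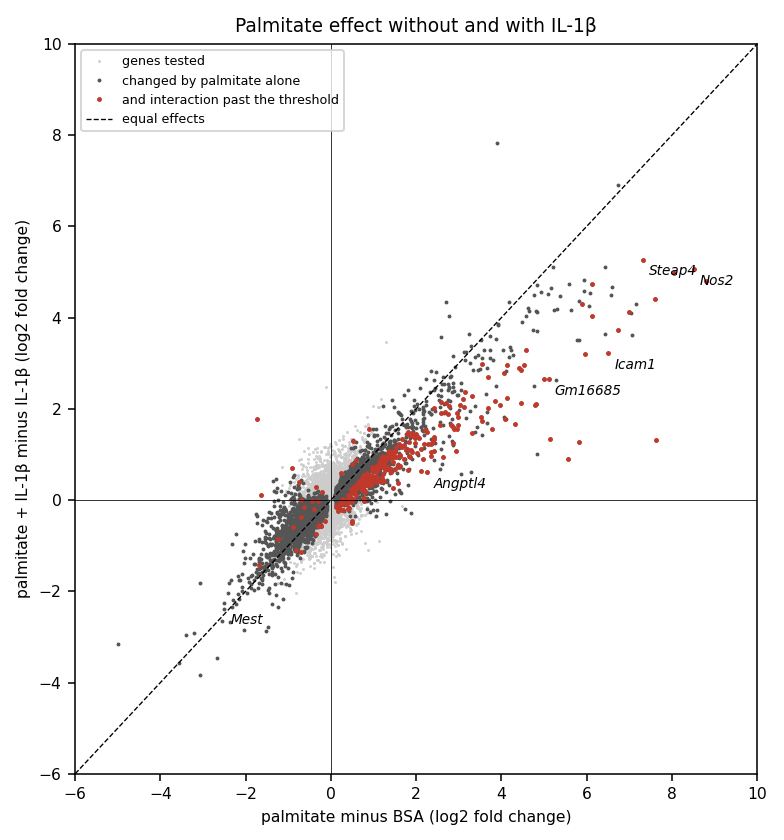
Log2 fold change of palmitate against BSA (horizontal) and of palmitate + IL-1β against IL-1β (vertical) for the genes tested, with dark points for genes changed by palmitate alone and red points for those whose interaction also passed the threshold. The dashed line marks equal effects. The red points with large rises, such as Nos2 and Icam1, lie below it, and Mest lies near it.

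Of the named genes that fell, 3 had an interaction in the other direction, all in lipid and iron handling. Cpt1a fell by 0.44 without IL-1β and differed by -0.01 with it, Plin2 fell by 0.31 and differed by -0.01, and Slc40a1 fell by 0.69 and by 0.38. Of 55 cell cycle genes, 25 were lower and 4 higher when palmitate was added to IL-1β, against 16.1% lower and 18.9% higher over all genes in that contrast. Whether the list differs from its response to palmitate alone was not tested.

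Palmitate was also set directly against IL-1β, which changed 5156 genes (31.6%), 16.5% higher and 15.2% lower with palmitate. This contrast uses the same palmitate libraries as the comparison with BSA. The 12 largest falls were all lower with palmitate than with IL-1β, by -1.38 (Plekhg4) to -2.36 (Ndnf) on the log2 scale, while their differences between IL-1β and BSA lay between -0.38 and 0.07. Of the Wnt list 21 of 41 genes were lower with palmitate than with IL-1β and 5 higher, of the craniofacial factors 21 of 38 and 5, and of the Notch list 8 of 18 and 3.

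Fatty acid genes set the agents apart in another way. Of the 30 oxidation and PPAR genes, 21 were lower with palmitate than with IL-1β and 1 was higher. Cpt1a was 0.95 higher with IL-1β than with BSA on the log2 scale, Pdk4 1.5 higher and Angptl4 4.52 higher, values that share the BSA libraries with the palmitate comparison. The log2 differences of palmitate from IL-1β were -1.39, -1.18 and -2.26 for these genes (edgeR adjusted p = 7.66e-22, 2.45e-18 and 3.01e-10). Of the 25 cholesterol genes, 18 were higher with palmitate than with IL-1β and none lower in edgeR's test, although none had risen against BSA. Of the NRF2 targets 21 of 31 were higher with palmitate than with IL-1β and 3 lower. Hmox1 was among the 3, with a log2 difference of -0.18 (edgeR adjusted p = 0.00317).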

How the data were processed

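Bulk RNA was sequenced in 16 libraries, 4 per condition. Sources differ on the library kit, which is stranded total RNA in the labels and oligo(dT)-primed SMART-Seq in the methods. Per the labels and methods, the authors used Trimmomatic 0.39 for trimming, STAR 2.7.10a for alignment to GRCm39 and HTSeq 2.0.9 for counting over GENCODE vM33 genes. The deposited values are raw counts for 56941 genes, of which 38131 had a count. The 5 summary rows that name no gene, 18.3% to 21.4% of each of the 8 libraries, were left out. HTSeq drops reads with more than 1 place, so genes with near copies are under-counted.

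Differences were tested with edgeR 4.0.16 (R 4.3.3) on the counts, with TMM scaling, filterByExpr (16306 genes kept), glmQLFit with robust estimation and glmQLFTest, with the 16 libraries in a single model that had 1 coefficient for each condition. The study used DESeq2, which is an alternative here (1.42.0). Adjusted p-values are Benjamini-Hochberg over the 16306 genes, and a gene was called at an adjusted p under 0.05. Levels are CPM on TMM-scaled totals, and floors cover counting error only. BSA factors were 1.01 to 1.04 and palmitate factors 0.970 to 1.01. Replicates of a group differed by 3.90 to 12.1 chi-square per degree of freedom, which is above the sampling noise of a library deposited again. Whether they are separate preparations of 1 RNA or culture cannot be told apart from separate cultures.

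Named genes were the 12 largest rises and falls among called genes without overlap and with a mean log2 CPM of at least 1, and up to 2 rises and 2 falls per list at a mean log2 CPM of at least 0. A further 26 genes were chosen after their values were seen: Atf4, Ddit3, Hspa5, Hmox1, Nqo1, Gclm, Txnrd1, Prdx1, Cpt1a, Pdk4, Plin2, Jag1, Twist1, Igf1, Tfrc, Nfkbia, Relb, Lcn2, Slc7a2, Ptges, Hes1, Hey1, Runx2, Sox9, Wnt5a and Acadm. Genes named without a value, marker genes, Ephx1, Fzd3 and Igf2r were named in the same way, and 29 of these were added to the checks of each gene. The comparison, its lists and these rules were chosen with earlier results of these data known. Of 1077 genes in 30 lists, 981 passed the filter. Lists are described by counts and medians, without a test. Positions are from GENCODE vM39 (56323 of 56941 genes found), promoters are the 250 bases before the canonical start site, and shared sequence was searched on either strand with BLAST 2.17.0 at 95% identity over 60 bases or more. Only the edgeR test of palmitate against BSA was tried on simulated counts, with 200 of 16154 genes changed by known folds. It recovered 199 of them and called 9 unchanged genes. The share changed was far below the 37.3% called here, and the lists, motifs and interaction were not simulated. Alternatives were other scalings, DESeq2, other filters, fewer libraries and a thinned palmitate replicate 10. Chemokines, interferon-induced genes, purinergic genes and the paper's protein and metabolic measurements were not described here.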

Additional observations from a re-analysis of the deposited data

Results flagged for a closer look

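In 360 groups of 4 libraries (the total counts, the mitochondrial share and the CPM of 178 named genes, each in BSA and in palmitate), 24 held a library set apart from the other 3, where chance alone flags about 1 in 20 groups. The total of palmitate replicate 10 was 92752515 counts. In BSA, replicate 3 stood apart for Osr2 (6.79 CPM), Acss2 (11.9), Derl1 (111.7), Pdgfra (224.2) and Prdx1 (514.3), replicate 4 for Ern1 (21.7) and Cdkn1c (24.8), replicate 2 for Hey2 (1.97), Sox5 (4.04) and Txnrd1 (213.2), and replicate 1 for Bmp3 (3.61). In palmitate, replicate 12 stood apart for Ddx60 (10.2 CPM), Vcam1 (547.2), Srxn1 (417.8), P4ha2 (79.5) and Cd44 (1037), replicate 11 for Zc3h12a (50.8), Col1a1 (13220) and Notch3 (11.1), replicate 9 for Fosb (0.340), Foxf2 (14.4) and Lhx8 (54.8) and replicate 10 for Plin2 (53.7).

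The palmitate effect differed with and without IL-1β, by the interaction in edgeR's test at an adjusted p under 0.05, for 42 of 178 genes. In 39 the rise with palmitate alone was the larger. The log2 interactions were -3.45 for Nos2, -3.29 for Icam1, -3.07 for Saa3, -2.46 for Gm16685, -2.32 for Icosl, -2.09 for Cd40 and -2.06 for Steap4. They were -1.67 for Serpina3i and Vcam1, -1.65 for Angptl4, -1.60 for Zc3h12a, -1.58 for C3, -1.40 for Slc7a11, -1.28 for Syt7, -1.26 for Nfkbia, -1.16 for Gch1, -1.13 for Bcl3 and -1.09 for Casp4. Smaller ones were those of Fas (-0.82), Fosl1 (-0.79), Slc11a2 (-0.73), Bmp3 and Ier3 (-0.67 each), Relb (-0.59), Slc7a2 (-0.58), Lbp (-0.55), Cebpb (-0.49), Rbpj (-0.47), Gclm (-0.46), Tgfbr3 (-0.44), Bhlhe40 (-0.43), Tfrc (-0.42), Arntl (-0.41), Mmp3 (-0.40), Srxn1 (-0.38), Cd44 (-0.34), Hk2 (-0.33), Txnrd1 (-0.29) and Sqstm1 (-0.25). In 3 genes that fell with palmitate alone the interaction was above 0, at 0.30 for Plin2, 0.31 for Slc40a1 and 0.42 for Cpt1a.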

How the results depend on the processing

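Over 16 alternatives, the genes changed by palmitate numbered 6466 with upper-quartile scaling (2402 higher and 4064 lower), 5742 with DESeq2 and 5680 where every library had to hold 10 counts. Without 1 library the number was 5167 (without palmitate replicate 10) to 5787. For palmitate + IL-1β against IL-1β this range was 5021 to 5413, and for palmitate against IL-1β 4281 to 4952. Genes past 2-fold fell from 934 to 515 where at least 10 counts were asked in every library, a setting that drops genes absent from 1 condition, and numbered 372 and 325 in the other 2 contrasts. Of 178 named genes, Atf4 turned from 0.02 to -0.048 with upper-quartile scaling and Col1a1, at -0.02, to 0.0123 without palmitate replicate 11 (from -0.0401 over the fits without 1 library), neither of them called, and 11 lost their call in 38 fits (Tm7sf2, Dhcr7, Sdhd, Hspa5, Dlx2, Ephx1, Fn1, Foxc2, Igf2r, Pdgfrb and Sfrp2). Sdhd did so without BSA replicate 2 (adjusted p = 0.0677). Among list counts, 929 stayed within 1.5 times and 31 did not. No paired analysis was possible because the groups share no replicate numbers. The depth of 21234789 counts or more limits genes near the floor.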

Other observations

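Beyond protein-coding genes, 110 of 1591 tested long non-coding RNAs were higher with palmitate and 188 lower in edgeR's test, with a median log2 fold change of -0.12. Of 36 tested small nucleolar RNAs, which guide the modification of ribosomal RNA, 8 were higher and none lower. Processed pseudogenes were higher in 34 and lower in 10 of 714. For comparison, 3023 of 12913 protein-coding genes were higher and 2578 lower. Small nucleolar RNAs and pseudogenes can share reads with host or parent genes, and the part of this was not tested.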
